A study of Mus musculus with 4 samples.

Results

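The 8 genes described here encode the receptor chains of the interleukin-6 (IL-6) and interleukin-5 (IL-5) families and IL-6 itself: Il6, Il6ra, Il6st, Lifr, Osmr, Il5ra, Csf2rb and Csf2rb2. They were chosen by name, with earlier results of these arrays known, among them the higher Il6ra signal in Mbd4 KO cells. Each is read by 1 transcript cluster that the platform's gene table pairs with that symbol alone, so the family makes up 8 of 21789 such clusters. Expression was measured on 4 whole-transcript arrays of CH12.F3, a B cell lymphoma line from the mouse whose cells switch from IgM to IgA in culture. Control cells and Mbd4 KO cells, which lack the DNA glycosylase Mbd4, have 2 arrays each. Cells of both groups grew in medium with 6% fetal calf serum and received IL-4 at 5 ng/ml, TGF-beta at 0.2 ng/ml and CD40 ligand at 25% of the volume during 24 hours before RNA was taken. No unactivated cells were analysed here. The design text calls the samples of a group independent, but the sources used here do not say whether these were separate cultures or separate clones, so the spread between arrays may be partly technical. A difference can reflect the loss of Mbd4 or any other difference between the cells of the groups; these cannot be told apart.

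IL-6 binds its alpha chain, encoded by Il6ra, and the pair engages gp130, the shared signal-transducing chain encoded by Il6st, which activates JAK kinases and STAT3. Lifr and Osmr encode the chains that pair with gp130 to form the receptors of leukaemia inhibitory factor and oncostatin M. IL-5 binds the alpha chain encoded by Il5ra, which signals through the common beta chain, encoded by Csf2rb and shared with the receptors of IL-3 and GM-CSF, by way of JAK2 and STAT5. Csf2rb2 is a second mouse beta chain gene that serves the IL-3 receptor. In mice, IL-5 acts on B-1 cells and activated B cells and favours antibody secretion, and IL-6 supports plasma cells.

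Mbd4 itself gave log2 values of 8.74 and 8.77 with control cells, against 6.47 and 6.49 on the Mbd4 KO arrays. The difference was -2.28 ± 0.066 (log2, SE; limma adjusted p = 0.0002 over all 21789 clusters), and the groups did not overlap. The medians of all 35556 values lay between 6.94 and 6.98 on the 4 arrays. B cell identity was checked with 10 marker genes, of which 9 had a cluster of their own. All 9 lay, with at least 1 cluster, above the first of the references for silent genes described next. Of these, 8 also lay above the second, stricter one. The exception was Ighm, the IgM heavy chain gene, whose clusters read from 3.60 to 7.57. Measured from the first reference of the same array, its dimmest cluster lay at -2.65 to -2.10. Of 22 markers of T cells, myeloid cells, mast cells, eosinophils and fibroblasts, 13 lay above the first reference and 1 above the second: Cd5, which is also a marker of B-1 cells, with values from 10.4 to 10.5. Of these 22 markers, 1 passed limma's threshold between the groups, the macrophage marker Adgre1, which fell by 1.06 (log2; SE 0.070; adjusted p = 0.00311) from 7.69 and 7.68 to 6.58 and 6.67. Its part in the differences below was not tested.

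Which chains gave signal at all was judged against genes that B cells do not use. The deposited values carry no detection call. Probes differ in brightness, so levels were set against sets of reference genes, and single genes were not ranked against each other. Such a placing is rough for a single cluster. The first reference was the 95th percentile of 1210 clusters of olfactory and vomeronasal receptor genes, which lay between 6.25 and 6.28 on the 4 arrays. The second was the 95th percentile of 84 clusters of keratin-associated protein and beta-defensin genes, between 7.76 and 8.07. Of all 21789 clusters, 62.3% lay above the first on every array and 40.2% above the second. Mbd4 lay above the first reference on every array, those of Mbd4 KO cells included, by 0.18 (log2) at the least. It did not lie above the second on every array. Whether Mbd4 KO cells still make part of the Mbd4 transcript was not tested. A value slightly above the first reference was taken as only a weak sign of use. Of the 8 members, 5 (Il6ra, Il6st, Il5ra, Csf2rb and Csf2rb2) lay above both on every array. Il6, Lifr and Osmr lay above neither on any array, which says that the arrays gave no signal beyond that of unused genes, not that these genes are silent.

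**Figure D1:**
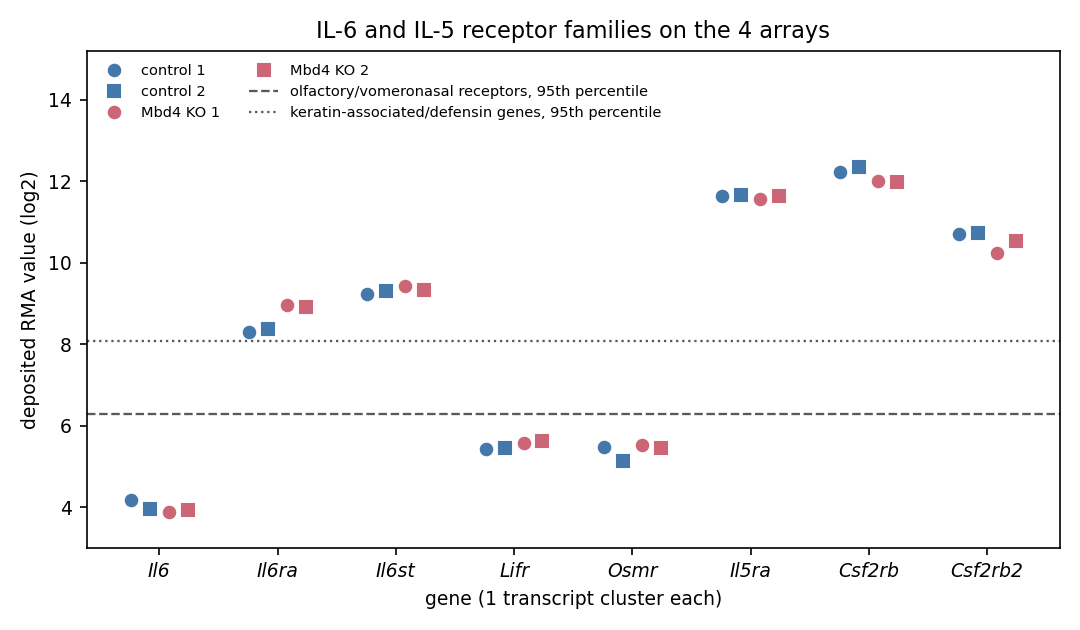
Deposited RMA values (log2) of the 8 genes on each of the 4 arrays; blue points are control arrays and red points Mbd4 KO arrays, and the horizontal lines mark the 95th percentiles of the references for silent genes (the highest of the 4 arrays, 6.28 dashed and 8.07 dotted). Il6, Lifr and Osmr sit below both lines, and the other 5 genes above both.

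The IL-6 ligand gene itself was dim: Il6 read 4.18 and 3.95 (log2) on the control arrays, against 3.88 and 3.92 on the Mbd4 KO arrays. Only 19.0% of the olfactory and vomeronasal receptor clusters had a lower mean. The alpha chain gene Il6ra read 8.30 and 8.37 on the control arrays, against 8.95 and 8.91 on the Mbd4 KO arrays. Both Mbd4 KO arrays were higher than both control arrays, and the 4 values lay 2.02 to 2.67 above the first reference. On control array 1 its value lay between the 95th and 99th percentiles of the keratin-associated protein and defensin genes, which were 8.04 and 8.48 there. The gp130 gene Il6st read 9.24 and 9.31 on the control arrays, against 9.41 and 9.32 on the Mbd4 KO arrays, 2.95 to 3.13 above the first reference. Both chains of the IL-6 receptor thus lay above both references in both groups, while the ligand gene exceeded neither reference in either group.

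The partner chains of the LIF and oncostatin M receptors stayed below the references. Lifr read 5.43 and 5.44 on the control arrays, against 5.58 and 5.62 on the Mbd4 KO arrays. Osmr read 5.46 and 5.14 on the control arrays, against 5.52 and 5.45 on the Mbd4 KO arrays. Measured from the first reference of the same array, Lifr lay at -0.85 to -0.67 and Osmr at -1.12 to -0.76.

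All 3 IL-5 and beta chain genes were far above the references. Il5ra read 11.63 and 11.67 on the control arrays, against 11.56 and 11.63 on the Mbd4 KO arrays, 5.27 to 5.41 above the first reference, and the groups overlapped. Csf2rb read 12.23 and 12.34 on the control arrays, against 12.00 and 11.97 on the Mbd4 KO arrays. Csf2rb2 read 10.70 and 10.73 on the control arrays, against 10.24 and 10.53 on the Mbd4 KO arrays. Both beta chain genes were lower on both Mbd4 KO arrays than on either control array. They lie side by side on chromosome 15, with a microRNA gene between them in RefSeq's GRCm38.p6 annotation, and are close copies of each other, so probes of one may also read the other. The positions of the probes are not stated in these sources.

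The promoters of these genes differ widely in their CpG content. RefSeq promoter windows (GRCm38.p6) were found for 7 of the 8 members, 8 windows in all. In the 250 bases before the transcript start, Il6st had 26 CpG sites, Il6ra and Osmr 18 each, Il5ra 4, and Il6 and Csf2rb2 3 each. Lifr had 43 in one window and 3 in the other. The median of 32851 windows was 6, and 21.7% of windows had at least the 18 of Il6ra, against 62.2% for the 4 of Il5ra. CpG-rich and CpG-poor promoters were found both among genes above the references (Il6st and Il6ra against Il5ra and Csf2rb2) and among those below them (Osmr against Il6). The windows of the 4 genes above the references that had one are shown 5′ to 3′ because Mbd4 binds methylated CpG sites, with each CG in capitals. No methylation was measured in these samples. They are chr3:89913197-89913446 (minus strand) for Il6ra, chr13:112463820-112464069 (plus strand) for Il6st, chr6:106749038-106749287 (minus strand) for Il5ra and chr15:78305722-78305971 (minus strand) for Csf2rb2.
Il6ra: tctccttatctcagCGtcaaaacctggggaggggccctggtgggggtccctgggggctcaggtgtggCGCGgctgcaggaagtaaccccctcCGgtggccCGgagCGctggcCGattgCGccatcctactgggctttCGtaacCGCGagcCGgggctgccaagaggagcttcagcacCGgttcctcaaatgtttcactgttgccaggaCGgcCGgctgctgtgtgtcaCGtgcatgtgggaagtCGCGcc
Il6st: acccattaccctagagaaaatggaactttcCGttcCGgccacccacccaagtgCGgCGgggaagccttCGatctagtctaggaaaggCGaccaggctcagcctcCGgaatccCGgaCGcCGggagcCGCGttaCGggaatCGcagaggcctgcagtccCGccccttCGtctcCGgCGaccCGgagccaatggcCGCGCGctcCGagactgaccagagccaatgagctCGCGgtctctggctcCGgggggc
Il5ra: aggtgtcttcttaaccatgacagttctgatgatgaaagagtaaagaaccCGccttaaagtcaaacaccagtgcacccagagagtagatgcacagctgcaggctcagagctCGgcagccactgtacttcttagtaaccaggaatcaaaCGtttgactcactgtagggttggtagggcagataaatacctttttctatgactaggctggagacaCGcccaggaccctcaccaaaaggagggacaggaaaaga
Csf2rb2: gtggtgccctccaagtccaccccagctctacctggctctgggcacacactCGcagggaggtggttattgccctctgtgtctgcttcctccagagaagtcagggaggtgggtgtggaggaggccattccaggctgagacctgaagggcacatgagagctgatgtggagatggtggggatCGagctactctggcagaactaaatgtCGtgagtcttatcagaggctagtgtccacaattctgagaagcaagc

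The same windows were searched for TTCNNNGAA, the palindromic core bound by STAT factors, which reads the same on both strands. Among the member windows only that of Csf2rb2 held a match, TTCTGAGAA, whose first base lies 15 bases before the transcript start. Of all windows, 7.02% held at least 1 match. A match is a description of the letters and not a binding site.

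Between the groups, the largest difference among the members was that of Il6ra. It was 0.60 ± 0.069 higher in Mbd4 KO cells (log2, SE; 95% interval 0.43 to 0.77), 1.52-fold, from 8.33 ± 0.045 to 8.93 ± 0.029 (mean ± SD, n = 2 each). Of the 21789 clusters, 196 had a larger absolute difference. Il6ra was the 1 member of 8 past limma's threshold, an adjusted p of 0.05 over all clusters, where 1.39% of all clusters passed, 0.431% as higher and 0.955% as lower. At an unadjusted p under 0.05 there were 4 of 8, against 13.8% of all clusters. Since the family was put together with this contrast known, its differences are a description and no test is drawn from them. With any 1 array left out Il6ra was not past the threshold, while its difference lay between 0.57 and 0.63.

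The gp130 gene Il6st differed by 0.09 ± 0.074 (95% interval -0.09 to 0.27), and the gap between the groups, 0.0068, was far smaller than the spread within them. Il5ra differed by -0.05 ± 0.069 (interval -0.22 to 0.12). Il5ra lies on chromosome 6, as does Mbd4. Csf2rb differed by -0.30 ± 0.072 (interval -0.47 to -0.12), a ratio of 0.814, and Csf2rb2 by -0.33 ± 0.11 (interval -0.59 to -0.07), a ratio of 0.796. Neither beta chain gene was past the threshold over all clusters. The Csf2rb2 value leans on Mbd4 KO array 1: the difference was -0.19 without it and -0.47 without Mbd4 KO array 2.

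The 3 genes below the references differed by -0.16 ± 0.095 (Il6), 0.16 ± 0.066 (Lifr) and 0.18 ± 0.12 (Osmr), log2 with SE. Differences at this level are between values that cannot be told from those of unused genes. The groups did not overlap in 6 of the 8 members, where 45.0% of all clusters show no overlap. Overlap was seen in Osmr and Il5ra. Of the members, 4 were higher and 4 lower, with a median difference of 0.02, against a median of 0.02 over all clusters.

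**Figure D2:**
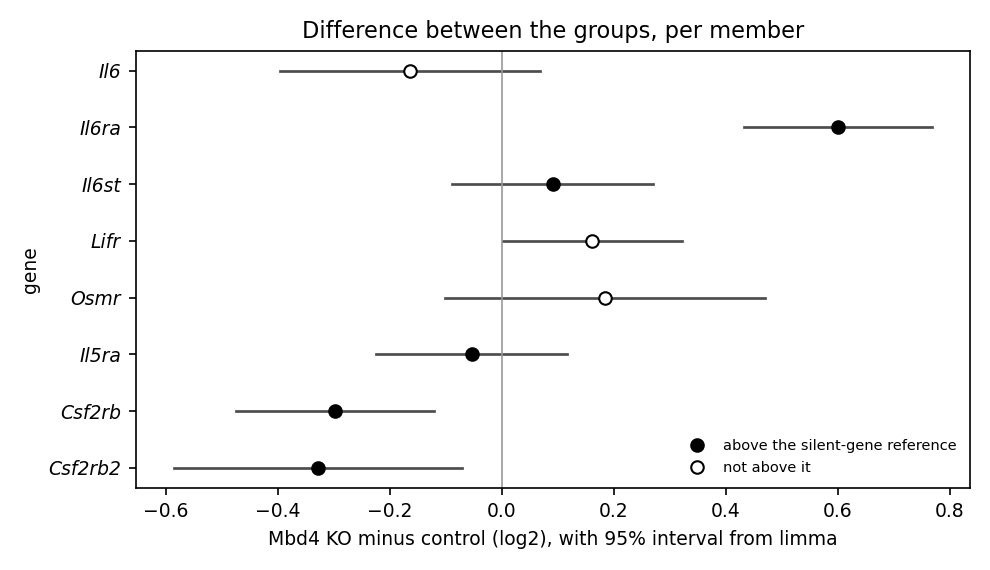
Difference between Mbd4 KO and control arrays for each of the 8 genes (log2; n = 2 arrays a group), with limma's 95% interval as a line; filled points are genes above the reference for silent genes. Il6ra lies at 0.60, Csf2rb and Csf2rb2 at -0.30 and -0.33, and the intervals of Il6, Il6st, Osmr and Il5ra cross 0.

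The genes whose pattern over the 4 arrays was most like that of Il6ra were Syn3, Deptor, Lipg, Siae and Kcnmb3. Likeness was the root mean square difference between values centred on each cluster's mean, over 13565 clusters above the first reference. It was 0.020 (log2) for Syn3, a synapsin gene, and 0.020 for Deptor, an mTOR inhibitor gene. Lipg, the endothelial lipase gene, stood at 0.028, Siae, a sialic acid esterase gene that acts in B cells, at 0.031, and Kcnmb3, a potassium channel subunit gene, at 0.031. With 4 arrays in 2 groups, this likeness is mostly a like difference between the groups, from 0.55 (Siae) to 0.64 (Kcnmb3).

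The rest of both pathways was read from 6 lists of 64 genes, 59 of which had a cluster of their own (62 clusters). Over all lists 1 cluster passed limma's threshold, 0 higher and 1 lower, or 1.61% of 62 against 1.39% of all clusters. At an unadjusted p under 0.05 there were 11 of 62, or 17.7%, against 13.8% of all clusters. The median difference over the lists was -0.01, against 0.02 over all clusters. The groups did not overlap in 28 of 62, or 45.2%, against 45.0% of all clusters.

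Of the ligands that act through gp130, 8 were measured and 5 lay above the first reference, but only Ebi3 lay above the second. Ebi3, the subunit that IL-27 and IL-35 share, read 10.49 and 10.57 on the control arrays, against 10.66 and 10.70 on the Mbd4 KO arrays, a difference of 0.15 ± 0.069 (limma adjusted p = 0.422). Il27, which encodes the other IL-27 subunit, was between 7.56 and 7.73. Lif, Il31 and Il11 did not exceed the first reference on all arrays. Osm, the oncostatin M gene, differed by 0.12 ± 0.099 (adjusted p = 0.664). By limma 0 of the 8 passed, and 0 had an unadjusted p under 0.05.

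Among 8 other receptor genes built like gp130 or its partners, Cntfr, Il27ra and Il12rb1 lay above the first reference. Il27ra, the IL-27 receptor alpha chain that pairs with gp130, was the only one above the second, with values from 8.94 to 9.12. Il12rb1, the chain shared by the IL-12 and IL-23 receptors, read 8.46 and 8.41 on the control arrays, against 7.91 and 7.89 on the Mbd4 KO arrays. It fell by 0.53 (log2; SE 0.067; limma adjusted p = 0.0296), and the groups did not overlap. It was the 1 call of this list and of all 6 lists. The call was lost with any 1 array left out (limma adjusted p = 0.144 to 0.169) and with all 35556 clusters tested (0.181). Its specific partners Il12rb2 and Il23r did not exceed the reference. Cntfr, the ciliary neurotrophic factor receptor gene, differed by -0.11 ± 0.093 (adjusted p = 0.669).

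Of the ligands and alpha chains that use the beta common chain, the ligand genes Il5, Il3 and Csf2 stayed below the references, with means between 4.62 and 5.58. The alpha chain genes Il3ra and Csf2ra lay above the first reference, and Il3ra also above the second. Il3ra read 8.06 and 7.93 on the control arrays, against 8.13 and 8.06 on the Mbd4 KO arrays, a difference of 0.10 ± 0.078 (limma adjusted p = 0.643). Csf2ra, the GM-CSF receptor alpha chain gene, differed by 0.18 ± 0.077 (adjusted p = 0.382). By limma 0 of these 5 passed, and 0 had an unadjusted p under 0.05.

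The transducers below the receptors gave strong signal: 12 of 13 lay above both references, the exception being the adaptor gene Gab1. Stat3, the main effector of gp130, read 10.57 and 10.56 on the control arrays, against 10.21 and 10.28 on the Mbd4 KO arrays. Its difference was -0.32 ± 0.068 (limma adjusted p = 0.109). It passed with an intensity trend in limma's prior (0.00427) and without the dimmest 30% of clusters (0.0453). It did not pass with the replicate number as a block (0.151) or with all 35556 clusters tested (0.277). A robust prior, quantile normalization and cyclic loess normalization also left Stat3 short of the threshold (limma adjusted p = 0.0964 to 0.113). Jak2, the kinase of the beta common chain, read 10.45 and 10.51 on the control arrays, against 10.69 and 10.90 on the Mbd4 KO arrays. The Jak2 difference was 0.32 ± 0.091 (limma adjusted p = 0.208), which passed with an intensity trend (0.0176). It did not pass with the replicate block (0.174) or with all clusters (0.404). Nor did it pass with a robust prior, quantile normalization or cyclic loess normalization (limma adjusted p = 0.179 to 0.215). Without Mbd4 KO array 1 the Jak2 difference was 0.42, and without Mbd4 KO array 2 it was 0.21. Stat5a and Stat5b differed by 0.03 and -0.04. By limma 0 of the 13 passed, with 2 at an unadjusted p under 0.05.

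All 13 clusters of the 10 inhibitor and sheddase genes lay above the first reference. Socs3, the feedback inhibitor of gp130 signalling, has 2 clusters, which differed by -0.07 and -0.03. Adam10 and Adam17, proteases that shed the IL-6 receptor from the cell surface, differed by 0.04 and -0.03. The largest differences were those of the phosphatase gene Ptpn6 (-0.17 ± 0.071, limma adjusted p = 0.358) and of Pias3, an inhibitor of STAT3 (-0.13 ± 0.070, adjusted p = 0.483). By limma 0 of the 13 passed, with 1 at an unadjusted p under 0.05.

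Of 15 genes listed as targets of STAT3 or STAT5, 7 were higher and 8 lower, and by limma 0 passed. At an unadjusted p under 0.05 there were 7 (46.7%), against 13.8% of all clusters. Of the 48 pathway clusters above the first reference, which include 13 of these 15, 22.9% had such a p. The list was chosen with earlier results known, so no test is drawn from this share. Pim1, a survival kinase gene, read 11.05 and 11.00 on the control arrays, against 11.39 and 11.33 on the Mbd4 KO arrays, a difference of 0.33 ± 0.068 (limma adjusted p = 0.0994). Bcl3, an NF-kappaB cofactor gene, read 9.86 and 9.98 on the control arrays, against 9.59 and 9.67 on the Mbd4 KO arrays, a difference of -0.29 ± 0.076 (adjusted p = 0.177). Pim1 passed with an intensity trend (limma adjusted p = 0.00156) and without the dimmest clusters (0.0402), and Bcl3 with an intensity trend (0.0219). With the replicate block neither passed (0.135 for Pim1 and 0.169 for Bcl3), nor with all clusters (0.268 and 0.364). A robust prior, quantile normalization and cyclic loess normalization also left both short of the threshold. The limma adjusted p was then 0.0927 to 0.103 for Pim1 and 0.144 to 0.183 for Bcl3. The median difference of the 15 was -0.03.

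**Figure D3:**
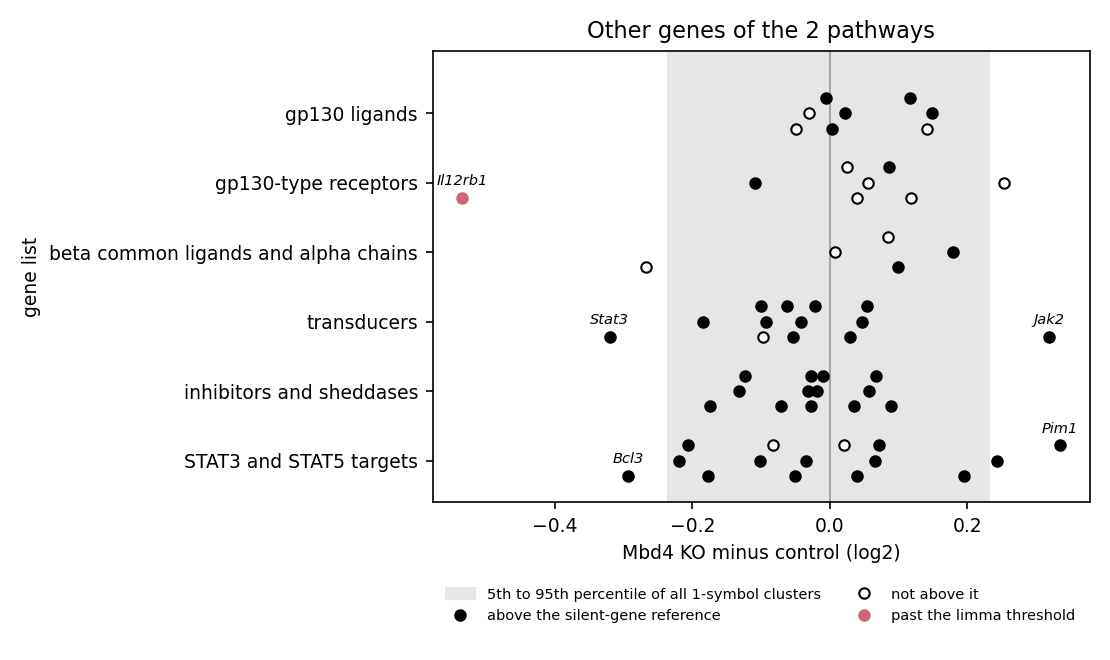
Difference between Mbd4 KO and control arrays (log2) for each of the 62 clusters of the 6 pathway lists; filled points lie above the first reference for silent genes, the red point is past limma's threshold, and the grey band spans the 5th to 95th percentile of all 21789 clusters (-0.23 to 0.23). Il12rb1 lies at -0.53, Stat3 at -0.32, Jak2 at 0.32 and Pim1 at 0.33, while most other points lie inside the band.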

How the data were processed

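The authors made the deposited log2 values, 1 for each transcript cluster on each array, with RMA, per the submitters' processing notes; the log2 scale was read from their range. For the RMA version and settings and the array's genome build, nothing is given in the sources used here. Groups came from the sample titles. Of 35556 clusters, 21789 had 1 symbol in the platform's gene table (which may be outdated), 1621 had several and 12146 had none there. Only those with 1 symbol were used.

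Differences between the groups were fitted in R 4.3.3 with limma 3.58.1 (lmFit, then eBayes with no trend or robust prior; 2 residual and 4.00 prior degrees of freedom), with two-sided p-values adjusted by Benjamini-Hochberg over all 21789 clusters. No raw intensity was used, so signal over background was judged only by the references described above. The number of arrays limits the precision. Members, pathway lists, markers and references were chosen with earlier results of these data known. Named were all members, Mbd4, every passing pathway cluster, the 2 largest differences above the first reference in each list, and the 5 patterns most like Il6ra; other genes are named to describe their level or role, or as values chosen after they were seen. Some genes of the lists are not reported here. Alternatives were the replicate block, each array left out, a trend or robust prior, cyclic loess or quantile normalization, a test without the dimmest 30% of clusters or on all clusters, and other references. Figures were drawn with matplotlib 3.10.9.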

Additional observations from a re-analysis of the deposited data

How the results depend on the processing

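Of the alternatives, only the normalizations and the omission of an array can move a member's difference. Under quantile and cyclic loess normalization, 15 of 16 member differences stayed within 1 SD between arrays of the reported value, the exception being Lifr (0.14 with cyclic loess), and 0 changed sign. With 2 arrays a group, leaving out 1 cannot move a difference beyond that SD. Removal of the dimmest 30% of clusters took out Il6, Lifr and Osmr. The clusters past limma's threshold numbered 302, against 159 with the replicate number as a block, 1121 with an intensity trend, 640 without the dimmest 30% of clusters, 22 with all clusters of the table and 65 to 75 with any 1 array left out. Of the 8 members 1 was called, against 0 with the replicate block and 0 with all clusters. With an intensity trend 3 were called (Il6ra, Csf2rb and Csf2rb2). Of the 62 pathway clusters 1 was called, against 0 with the replicate block and 0 with all clusters. With an intensity trend 8 of the 62 were called, and without the dimmest clusters 3 of the 51 that were left. Il12rb1 had a limma adjusted p of 0.0628 with the replicate block. The difference between control arrays 1 and 2 correlated at 0.083 over clusters with that between Mbd4 KO arrays 1 and 2. The sources used here do not say what the number stands for. Whether same-numbered arrays share more than a number cannot be read from this 1 value. The 5 members above the reference stayed 5 at the 90th and 99th percentiles, against the second reference, and with any 1 array left out, and were 4, without Il6ra, against the 99th percentile of the keratin-associated protein and beta-defensin genes, a setting chosen after seeing the data. Signal over background cannot be assessed for single clusters.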

Other observations

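The beta chain genes, neither of which passed limma's threshold, lie near another cytokine receptor gene that passed it as lower in Mbd4 KO cells. Il2rb, which encodes the beta chain of the IL-2 receptor, was the fifth measured cluster after Csf2rb in RefSeq gene order on chromosome 15, counting clusters above the first reference. It read 8.94 and 8.96 (log2) on the control arrays, against 7.73 and 8.08 on the Mbd4 KO arrays, and fell by 1.05 (SE 0.12; limma adjusted p = 0.021). Pvalb, the parvalbumin gene, the second cluster before Csf2rb2, read 7.55 and 7.53 on the control arrays, against 6.87 and 6.75 on the Mbd4 KO arrays, and fell by 0.73 (SE 0.073; limma adjusted p = 0.0132). Both genes were chosen after their values were seen. Of the other measured genes between them, Ncf4, a subunit gene of the phagocyte oxidase, differed by 0.10, Tst by 0.05, Mpst by 0.21, Kctd17 by 0.15 and Tmprss6 by -0.07, and none of these passed. Over the 19 clusters of this stretch other than Csf2rb, Csf2rb2 and Il2rb, the median difference was -0.02, and 1 of them, Pvalb, was called.

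Around Il6ra on chromosome 3, the 20 nearest clusters above the reference had a median difference of 0.05, between -0.14 and 0.25, and limma called 0 of them. Around Il12rb1 on chromosome 8 the median was 0.04, between -0.33 and 0.15, with 0 called.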
